A study of Mus musculus with 24 samples.

Results

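MuRF1 knockdown was compared with a control hairpin in HL-1 cells that had been cyclically stretched, across all measured genes. The comparison takes the 12 libraries labelled as cyclic stretch out of the 24 in the series, 6 with the knockdown and 6 with the control. The libraries of non-stretched cells entered the same fit, where they share in the filter and in the estimate of spread, and serve to show where stretched cells differ. HL-1 is an immortalised line derived from mouse atrial cardiomyocytes. Adenovirus was added to both groups at a multiplicity of infection (MOI) of 30, carrying either a hairpin against MuRF1 (Adsh_MuRF1) or a scrambled hairpin (Adsh_scrambled). After 48 h they were stretched by 15% at 1 Hz for 60 min and harvested at once. The stretch is called uniaxial in the labels' protocol and biaxial in their sample characteristics, and which of these was applied was not settled here. Polyadenylated RNA was captured and sequenced from stranded libraries, and 14411 of 20351 protein-coding genes had enough counts to be tested. The 2 groups therefore share the virus, the presence of a hairpin, the change to serum-free medium and the stretch, and differ by the hairpin. The knockdown rests on 1 hairpin in 1 cell line, and the labels do not say that the 6 replicates were separate cultures. Each p-value thus measures the spread between these libraries, which may be technical. Library codes carry a number that is 8 in all stretched knockdown libraries and 4 in all stretched control libraries. What that number means is not stated, and if it marks a batch, batch and hairpin cannot be told apart. The codes also carry a letter, a for replicates 1 to 3 and b for replicates 4 to 6 in each group. What the letter means was not settled here.

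MuRF1, the product of Trim63, is a ubiquitin ligase of striated muscle that sits at the M-band of the sarcomere and marks proteins for the proteasome. Troponin I, myosin heavy chains and myosin-binding protein C are among its known targets, and outside the sarcomere it acts on c-Jun, on PPAR-alpha and on the thyroid hormone receptor. Its relatives MuRF2 (Trim55) and MuRF3 (Trim54) share targets with it, and MuRF1 and atrogin-1 (Fbxo32) are the classic markers of muscle wasting. In the heart, MuRF1 is known for holding back cardiomyocyte growth and for its part in the response to load.

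By their principal components the libraries of each group resembled each other closely, apart from 1. Single genes could still differ within a group by the letter of the library code, as given below for interferon genes, Fosb and Hspa5. Totals lay between 38.2 and 54.8 M (M, mega) estimated counts in 11 libraries, and control replicate 5 held 23.6 M. The first principal component of the 12 libraries held 45.2% of the variance, with knockdown libraries at -23.8 to -19.6 and control libraries at 21.5 to 23.2. On the second component, with 16.4%, control replicate 5 stood at 41.9 and the other 11 libraries between -11.3 and 7.3. Mitochondrially encoded genes took 1.45% of its counts and 2.5 to 3.26% of the counts in the other 11. The results were therefore computed with and without this library, and the second value is given where it moves a result.

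**Figure D1:**
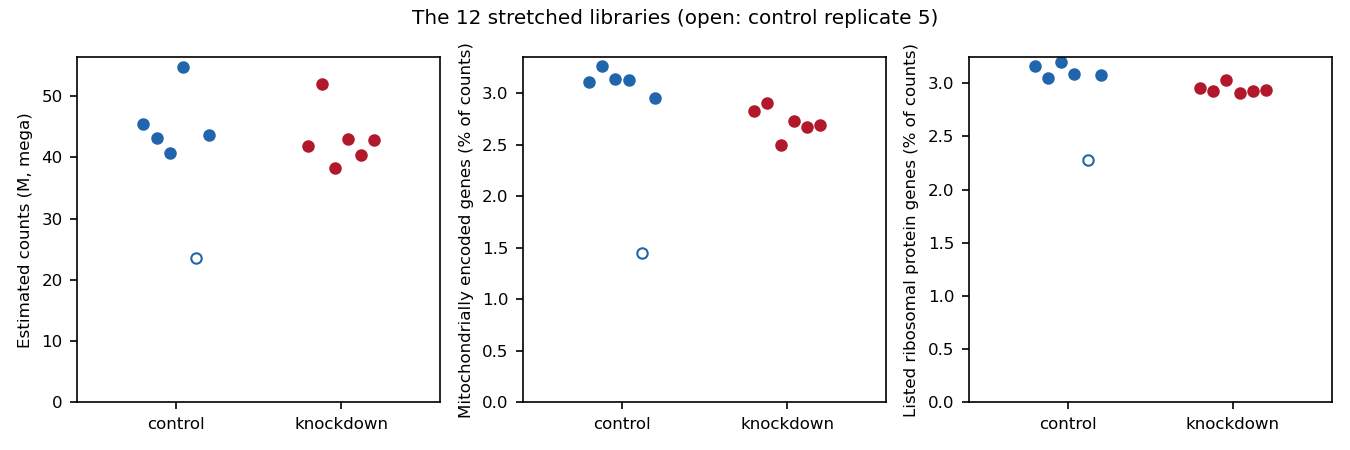
Estimated counts (M, mega), share of counts from 13 mitochondrially encoded genes and share from 44 listed ribosomal protein genes, for each of the 12 stretched libraries. Control replicate 5 (open symbol, 23.6 M) lies below all other libraries in the 3 panels.

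Markers of its cell of origin were present in part. The control libraries carried Tnnt2, Myl7, Ryr2 and Nkx2-5, with medians of 1329, 229.8, 267.6 and 79.66 CPM (estimated counts scaled to a fixed library size, with TMM factors). The hormone gene Nppa, a defining atrial product, lay between 0.4271 and 0.8583 CPM in controls and between 0.3335 and 0.7595 CPM in knockdown cells. Sarcolipin (Sln) was too low to be tested, at 3 to 6 counts per control library. Values in CPM are not corrected for gene length and are compared only between samples of the same gene. In these bulk samples, fewer cells of a kind and less RNA per cell cannot be told apart.

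Trim63 (ENSMUSG00000028834, chr4:134315120-134329629, plus strand, GRCm38) was lower in every knockdown library. Control libraries ranged from 687 to 882 CPM with a median of 783, and knockdown libraries from 60.0 to 83.5 CPM with a median of 67.1. The groups did not overlap, and the gene was 11.4-fold lower after knockdown (log2 change -3.51 ± 0.08 SE, adjusted p = 3.05e-21, edgeR's quasi-likelihood test with Benjamini-Hochberg adjustment, as for all adjusted p-values here). The mean remaining level was 91.2% below the control mean, with a two-sided exact permutation p of 0.00216, the smallest that 924 divisions of 12 libraries allow. Without control replicate 5 the fold was 11.7.

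The closest relative that could be tested, Trim55, fell as well. Its levels were 31.4 to 37.4 CPM in controls (median 33.9) and 16.8 to 20.9 CPM after knockdown (median 18.8), without overlap, a log2 change of -0.84 ± 0.045 (SE, adjusted p = 5.26e-15). Trim54 was too low to be tested. Whether the hairpin matches Trim55 was not examined, because its sequence is not in the sources used here. Fbxo32, which encodes atrogin-1, fell from 34.8 to 42.6 CPM (median 39.6) to 19.8 to 21.5 CPM (median 21.1), again without overlap (log2 -0.90 ± 0.0476 SE). Among all 25 tested genes of a list of MuRF genes and other muscle ubiquitin ligases, 16 were lower and 3 higher, with a median log2 change of -0.16. The other falls over 2-fold were Fbxl22 (-1.07), which acts at the sarcomere's Z-disc, Rnf207 (-1.06), Asb15 (-1.05) and Klhl38 (-1.05). The 3 that rose did so by little, with Trim32 and Traf6 at 0.23 and Mdm2 at 0.14.

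**Figure D2:**
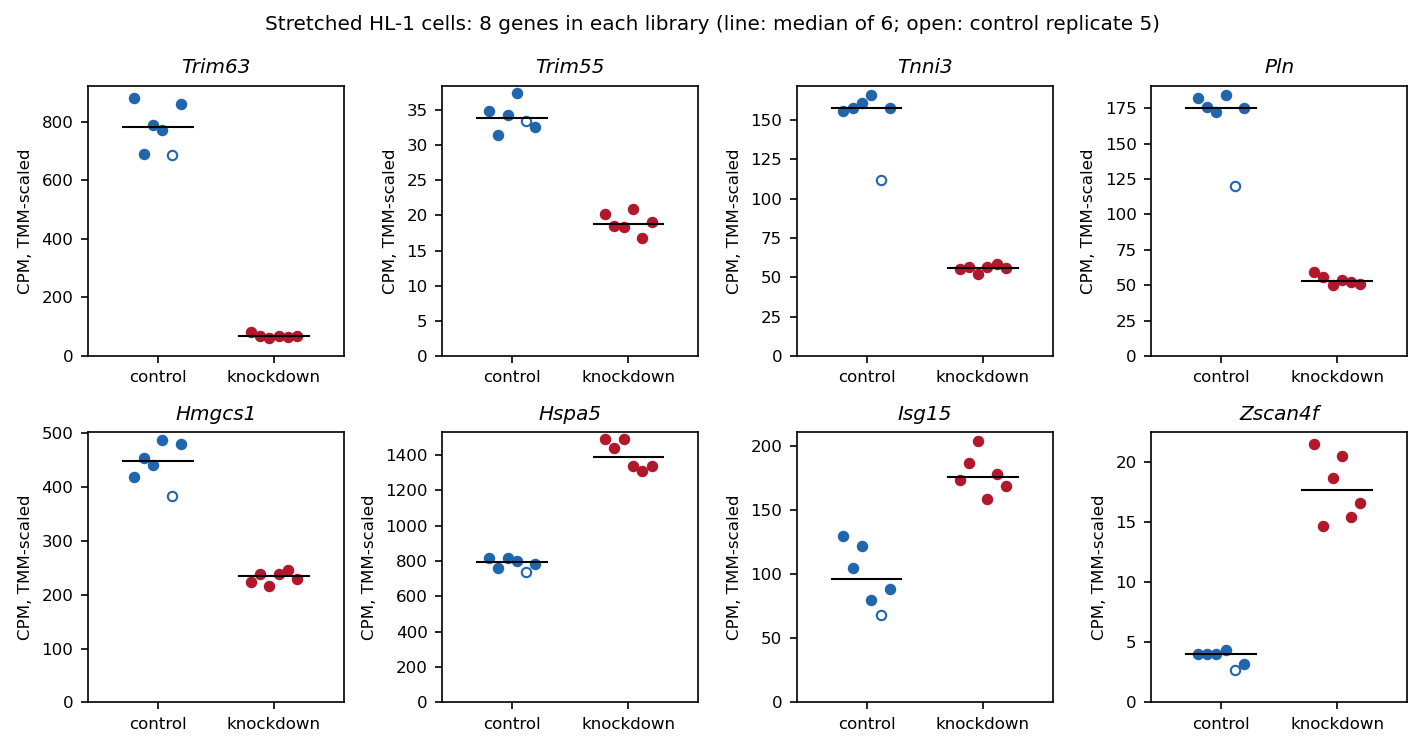
Level in CPM (vertical axes, starting at 0) of Trim63, Trim55, Tnni3, Pln, Hmgcs1, Hspa5, Isg15 and Zscan4f in the 6 control and 6 knockdown libraries of stretched cells, with the median of each group as a line and control replicate 5 as an open symbol. In none of the 8 genes do the groups overlap.

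Across all genes the difference between hairpins was wide and mostly small. Of 14411 tested genes, 7494 (52%) passed an adjusted p of 0.05, 3619 of them higher (25.1%) and 3875 lower (26.9%) after knockdown. The median absolute log2 change among the called genes was 0.283, and the median over all tested genes was 0.002. The scaling by TMM itself holds the second median near 0, and small list medians below rest on it. Its factors were 1.038 to 1.043 in knockdown libraries, 1.039 in control replicate 5 and 0.941 to 0.953 in the other controls. Changes over 2-fold were found for 659 genes (4.57%), of which 310 rose (2.15%) and 349 fell (2.42%). Over 1.5-fold, 729 rose (5.06%) and 894 fell (6.2%). For 4601 genes (31.9%) the 12 libraries did not overlap. Without control replicate 5, 8017 of 14466 genes (55.4%) were called, 3775 higher (26.1%) and 4242 lower (29.3%). In that fit 360 genes rose and 353 fell over 2-fold. Of the 7494, 7083 kept their call and direction in it and none was called in the opposite direction. A fit of only the 12 stretched libraries called 3664 genes higher and 3588 lower, with 578 over 2-fold. Since 52% of all genes were called, a list is described below by its counts and its median, read against these percentages.

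The largest falls among well-measured genes came after that of Trim63 and are given here. Hsd3b1, a steroid dehydrogenase, fell from 3.96 to 5.49 CPM (median 4.75) to 0.593 to 1.38 CPM (median 0.747), a log2 change of -2.46 ± 0.17 SE. Corin, the protease that activates natriuretic peptides, fell from 92.6 to 111 CPM (median 100) to 21.9 to 28.1 CPM (median 26.5), a log2 change of -1.96 ± 0.0554 SE. The same size of fall was seen in Wif1 (-2.05), a secreted Wnt inhibitor, in Angpt1 (-2.03), the ligand of the Tie2 receptor, and in Hdc (-1.90), which makes histamine. Others were Scrg1 (-2.27), Ceacam20 (-2.22), Aldh1a7 (-2.16), the matrix gene Adamtsl2 (-2.12), the chymase Cma1 (-2.12), the adhesion gene Chl1 (-2.10), Otof (-2.07), Mmrn1 (-2.06) and Plac1 (-2.0). These genes were chosen with the condition that all knockdown libraries lie below all control libraries.

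Among the largest rises were genes of gene families known from the earliest embryo. Zscan4f rose from 2.66 to 4.39 CPM (median 4.02) to 14.7 to 21.5 CPM (median 17.7), a log2 change of 2.24 ± 0.115 SE (adjusted p = 4.76e-15). Zscan4e (2.21), Zscan4b (2.13), Zscan4c (2.07) and Zscan4d (2.01) rose likewise, so all 5 listed Zscan4 genes did. All 5 Usp17l genes rose by 1.2 to 2.99, Usp17le among them at 2.18, and both Tcstv genes by 2.01 and 2.11 on the log2 scale. Members of these families are near-identical copies, and how the estimated counts were divided among them is uncertain, so the count of members is not a count of independent rises. Genes known only by clone names of the RP23 and RP24 type were also frequent here. Of 662 tested, 94 rose and 11 fell over 2-fold, and they made up 11 of the 15 largest rises. The rises named here are the 15 largest without them.

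Outside those families, the leading rises were Fosb (2.05), an AP-1 subunit, and Lhfpl2 (1.97). Shisa8 rose from 4.02 to 7.23 CPM (median 4.40) to 17.0 to 19.3 CPM (median 18.0), with a log2 change of 1.95 ± 0.0944 SE. Hrk (1.88), a BH3-only activator of cell death, Stox1 (1.85), the unconventional myosin Myo5c (1.72), Pramef25 (1.64), the interferon-inducible Trim30a (1.62) and Derl3 (1.54), which extracts misfolded proteins from the endoplasmic reticulum, completed the group. The 5 genes with the highest CPM among those changed at least 1.5-fold were Scd2 (-0.62), Fn1 (-0.70), Hyou1 (0.82), Prph (-0.95) and Sparc (-0.75). Prph encodes an intermediate filament protein of nerve cells and went from a control median of 1590 CPM to 822.1 CPM.

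Genes of the contractile apparatus were lower after knockdown in most cases. In the thin filament list 17 of 18 tested genes fell and 1 rose, with a median log2 change of -0.67. Among them was Tnni3, which encodes cardiac troponin I, a known MuRF1 target as a protein. Its RNA fell from 112 to 166 CPM (median 158) to 51.9 to 58.4 CPM (median 56.0), a log2 change of -1.45 ± 0.069 SE. Tnnt2, cardiac troponin T, fell from 968.5 to 1378 CPM (median 1329) to 558.8 to 583.0 CPM (median 568.9), a log2 change of -1.16 ± 0.0607 SE. In both genes the lowest control library was replicate 5 and still lay above all knockdown libraries. The slow-muscle troponin Tnni1 fell by 1.47, cardiac actin Actc1 by 1.07 and cardiac troponin C (Tnnc1) by 1.15 on the log2 scale. The only rise was of Neb (0.26), the thin filament ruler nebulin.

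In the thick filament list 11 of 17 tested genes fell and 3 rose, with a median of -0.58. Myl7, the atrial regulatory light chain, fell from 151 to 239 CPM (median 230) to 73.2 to 79.3 CPM (median 76.7), a log2 change of -1.51 ± 0.0724 SE. Myh6, alpha myosin heavy chain, fell by 1.22 from a control median of 6.25 to 2.60 CPM, and the myosin chaperone Unc45b by 1.13. The 3 that rose were the non-muscle myosins Myh10 (0.21) and Myh14 (0.15) and the ventricular light chain Myl2. Myl2 had a log2 change of 1.03 ± 0.377 SE at a knockdown median of only 0.206 CPM, and its groups overlapped.

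Around the Z-disc and M-band, 17 of 29 tested genes fell and 5 rose, with a median of -0.38. Titin (Ttn) fell from 295 to 380 CPM (median 320.9) to 195 to 222 CPM (median 200), a log2 change of -0.67 ± 0.0618 SE. Larger falls belonged to Tcap (-1.61), Csrp3 (-1.50), Cmya5 (-1.25), Ldb3 (-1.09) and the small heat shock protein Cryab (-0.93). The 5 rises were of Ankrd1 (0.83), the M-band gene Myom1 (0.65), Myoz2 (0.43), Flnc (0.41) and Pdlim7 (0.12). A list of MuRF1 partners and substrates gave 18 falls and 6 rises in 32 tested genes. Split by place, its 16 sarcomere and energy genes held 13 falls and 2 rises (median -0.68), and its 16 signalling and nuclear genes 5 falls and 4 rises (median -0.03). Most of the sarcomere and energy genes, Tnni3, Myh6 and Ttn among them, are also in the sarcomere lists above. Their fall is thus not separate from that of those lists. In the signalling and nuclear group Thra, the thyroid hormone receptor, had -0.66, Ppara -0.28 and Srf -0.28, while Jun rose by 0.60 and Rxra by 0.23. All these values are of RNA, and the levels of the proteins were not measured here.

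Calcium cycling and excitation followed the same direction. Of 21 tested calcium genes, 15 fell and 1 rose, with a median of -0.40. Phospholamban (Pln), the brake on the calcium pump, fell from 120 to 184 CPM (median 175) to 50.2 to 59.6 CPM (median 52.9), a log2 change of -1.65 ± 0.0876 SE. The ryanodine receptor Ryr2 fell from 257 to 295 CPM (median 268) to 133 to 147 CPM (median 137), a log2 change of -0.96 ± 0.0376 SE. The pump gene Atp2a2 fell by 0.48, and the sarcoplasmic reticulum genes Trdn and Casq2 by 1.26 and 1.16. Asph was the only one to rise (0.14).

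Of 22 tested ion channel genes, 15 fell and 3 rose, with a median of -0.58. The pacemaker channel Hcn4 fell from 84.5 to 110 CPM (median 94.9) to 45.0 to 49.0 CPM (median 47.8), a log2 change of -1.03 ± 0.0532 SE. The delayed rectifier Kcnh2 (-1.14), the acetylcholine-gated Kcnj5 (-1.31) and the L-type calcium channel Cacna1c (-0.86) also fell. The rises of Kcnd2 (1.179) and Kcnip2 (1.03), 2 subunits of the transient outward current, came at knockdown medians of 0.382 and 0.448 CPM with overlapping groups. The muscarinic receptor Chrm2 fell from a control median of 264 to 104 CPM (log2 -1.29 ± 0.0624 SE) and the endothelin receptor Ednra by 1.6, within a list of 21 receptor genes with 11 falls and 3 rises.

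At cell contacts, 14 of 17 tested intercalated disc genes fell and 3 rose, with a median of -0.44. N-cadherin (Cdh2) fell from 594 to 656 CPM (median 628) to 326 to 343 CPM (median 331), a log2 change of -0.91 ± 0.0271 SE. Desmoplakin (Dsp) fell by 0.86, the gap junction genes Gja1 by 0.81 and Gja5 by 1.23, and plakoglobin (Jup) by 0.56. Desmocollin Dsc2 (0.73), the connexin gene Gjc1 (0.33) and Tjp1 (0.06) rose. In the dystrophin complex, which ties the cytoskeleton to the matrix, 12 of 15 fell and 1 rose (median -0.44), with Lama2 at -1.35 and Cav3 at -1.02. Dmd itself rose by 0.17.

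Among 25 tested cardiac transcription factors, 14 were lower and 8 higher (median -0.32). Gata4 (-0.42), Tbx5 (-0.50), Mef2c (-0.42), Mef2a (-0.52), Hand2 (-0.44) and the SRF partner Myocd (-0.79) fell, while Nkx2-5 rose by 0.24. Hey2, a Notch target of ventricular muscle, rose from 1.26 to 2.04 CPM (median 1.40) to 3.46 to 4.5 CPM (median 3.91), a log2 change of 1.44 ± 0.103 SE. Mef2b (1.2) and the conduction system factors Tbx2 (1.05) and Tbx3 (1.04) rose over 2-fold as well. Targets of SRF and its cofactors went down as a list, with 19 of 22 tested genes lower and none higher, among them Myl9 (-1.0), Cnn2 (-0.62), Acta2 (-0.58) and Actb (-0.38).

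**Figure D3:**
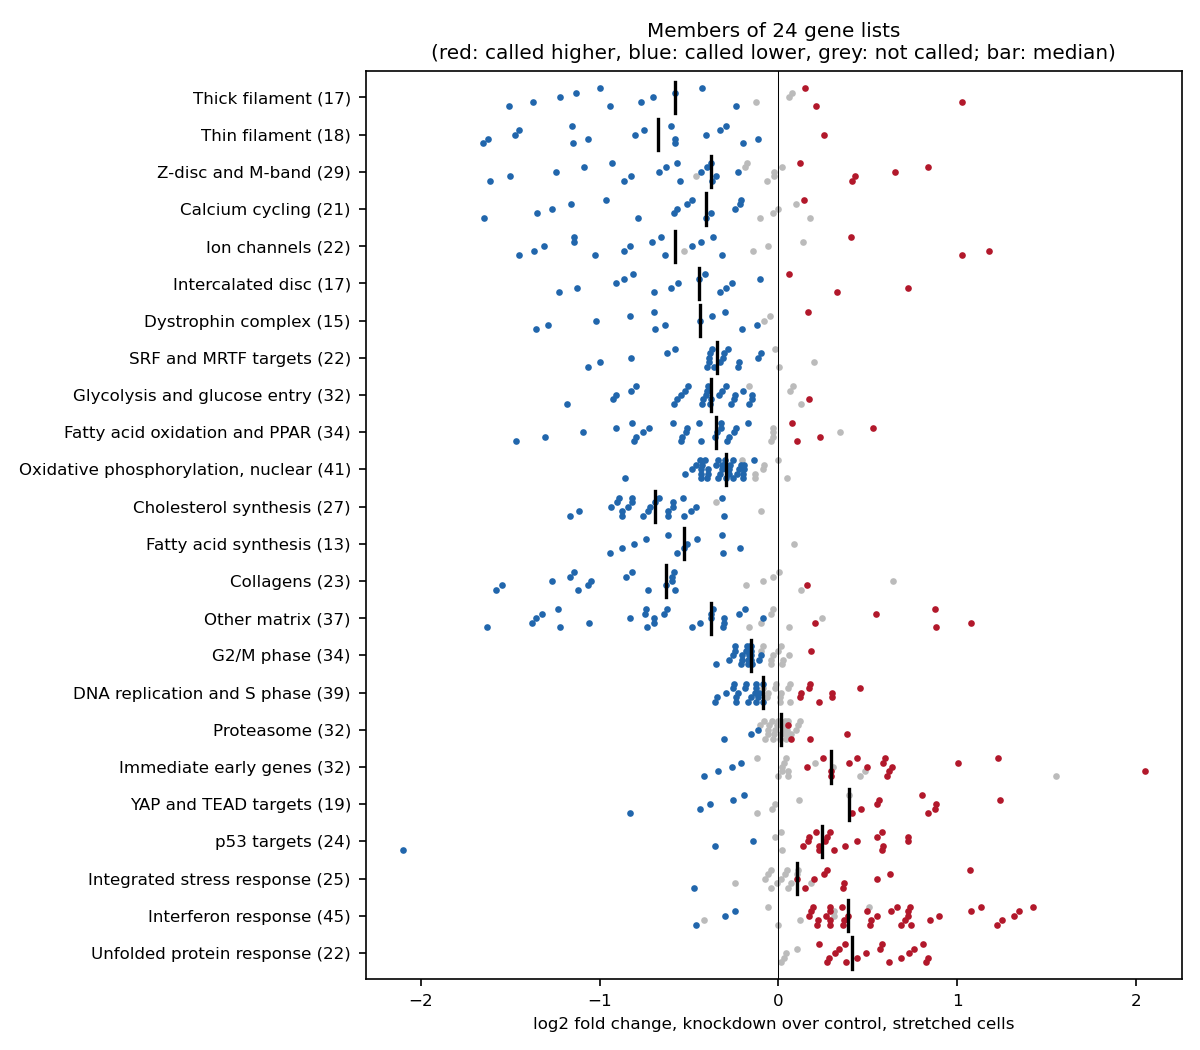
Log2 fold change of knockdown over control in stretched cells (horizontal axis) for every tested member of 24 lists, with the number tested in brackets, called genes in colour and the list median as a bar. Medians run from -0.69 for cholesterol synthesis to 0.41 for the unfolded protein response.

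Genes of energy supply fell in most cases, by smaller amounts. In glycolysis and glucose entry 27 of 32 tested genes were lower and 1 higher, with a median of -0.38. Aldoc fell from 121 to 152 CPM (median 132) to 54.1 to 64.2 CPM (median 59.1), a log2 change of -1.19 ± 0.0615 SE, and the glucose transporters Slc2a1 and Slc2a4 by 0.80 and 0.57. In fatty acid oxidation and its regulation, 25 of 34 fell and 4 rose, with a median of -0.35. Cd36, the fatty acid transporter, fell from a control median of 16.4 to 5.50 CPM (log2 -1.47 ± 0.0859 SE). Lpl (-1.30) supplies the cell with fatty acids, and Cpt1a (-0.76) admits them to mitochondria. The regulators Esrra (-0.91), Ppargc1a (-0.81), Ppargc1b (-0.82) and Esrrg (-0.72) were lower too.

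Nuclear genes of oxidative phosphorylation were lower in 34 of 41 cases and higher in none, with a median of -0.29. Atp5b, a catalytic subunit of ATP synthase, fell from 1776 to 2047 CPM (median 2002) to 1428 to 1478 CPM (median 1460), a log2 change of -0.43 ± 0.0301 SE. None of the 13 mitochondrially encoded genes was called. Their summed level was 23990 to 27970 CPM in knockdown libraries and 31130 to 34160 CPM in 5 controls, but 13990 CPM in control replicate 5. Without that library 8 of the 13 were called lower (median -0.37) and so were 40 of the 41 nuclear genes. In the same way, 15 of 44 cytosolic ribosomal protein genes were lower and 1 higher with all libraries, and 40 lower and 1 higher without control replicate 5. The medians were -0.14 and -0.23.

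Sterol genes were lower. Of 27 tested genes of cholesterol synthesis and its control, 25 were lower and none higher, with a median of -0.69, and in 24 of them the 12 libraries did not overlap. Hmgcs1, which makes HMG-CoA, fell from 383 to 488 CPM (median 449) to 216 to 246 CPM (median 234), a log2 change of -0.94 ± 0.0506 SE. Hsd17b7 fell by 1.11, Mvk by 0.90, Lss by 0.87, and Cyp51 by 0.84. The regulator Srebf2 fell by 0.46. The sterol exporter Abca1, which sterol loading is known to raise, fell by 0.69 with them. In fatty acid synthesis 12 of 13 tested genes fell and none rose (median -0.53), with Lpin1 at -0.94, Acss2 at -0.88, Srebf1 at -0.74 and Scd2 at -0.62. Scd2, a desaturase, went from 3217 to 3639 CPM (median 3287) to 2020 to 2311 CPM (median 2229).

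Endoplasmic reticulum chaperones rose instead. Of 22 tested genes of the unfolded protein response, 18 were higher and none lower (median 0.41), and in 18 the libraries did not overlap. Hspa5, the chaperone BiP, rose from 737.2 to 817.8 CPM (median 794.1) to 1315 to 1492 CPM (median 1391), a log2 change of 0.83 ± 0.0379 SE (adjusted p = 1.89e-16). Hyou1 (0.82), the transcription factor Xbp1 (0.81), Creld2 (0.76), Sdf2l1 (0.73), Dnajb9 (0.69) and Manf (0.62) followed. Herpud1, Atf6b, Ern1 and Canx were not called, at 0.01, 0.03, 0.04 and 0.10. After knockdown Hspa5 was at 1440 to 1492 CPM with letter a of the library code and at 1315 to 1340 CPM with letter b. Xbp1 overlapped between letters, as did both genes in controls, and the cause was not tested. In the integrated stress response list 10 of 25 rose and 1 fell (median 0.10). Slc7a11, the cystine transporter (1.07), Ppp1r15a (0.62) and Sesn2 (0.55) rose, but Atf4 (0.02) and Ddit3 (0.11) were not called. Cytosolic heat shock genes went mainly down, with 14 of 25 lower and 4 higher (median -0.14). Proteasome genes changed little, with 4 of 32 higher, 3 lower and a median of 0.01, and with 3 higher and 9 lower without control replicate 5.

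Interferon-inducible genes were mostly higher. Of 45 tested, 35 were higher and 3 lower, with a median of 0.39 and 7 rises over 2-fold, and without control replicate 5 the counts were 33 and 3. Isg15, a ubiquitin-like modifier, rose from 68.5 to 130 CPM (median 96.5) to 160 to 204 CPM (median 176), a log2 change of 0.85 ± 0.135 SE (adjusted p = 1.32e-05). Oas1a, a sensor of double-stranded RNA, rose from 5.19 to 11.0 CPM (median 8.25) to 15.3 to 23.9 CPM (median 18.6), a log2 change of 1.23 ± 0.168 SE. Ifi44 (1.34), Oas2 (1.32), Isg20 (1.25), Rsad2 (1.13) and Cxcl10 (1.08) rose in the same range. Irf7 rose less (0.72), and its groups overlapped, at 116 to 226 CPM in controls and 224 to 330 CPM after knockdown. Zbp1 had the largest change (1.42), but at only 0.122 to 0.363 CPM in controls and 0.29 to 1 CPM after knockdown, with overlapping groups. The 3 falls were of Lgals3bp (-0.46), Ifitm2 (-0.30) and Ifit2 (-0.24). The 12 libraries did not overlap in 21 of the 45 genes. Some of the genes also differed within a group by the letter of the library code. Oas2 was at 13.8 to 17.7 CPM in controls with letter a and at 7.67 to 8.67 CPM with letter b. After knockdown it was at 32.7 to 43.1 CPM and 21.9 to 25.1 CPM. Irf7 in controls was at 173 to 226 CPM and 116 to 135 CPM, while Ifit2 overlapped between letters. The cause was not tested. Antigen presentation genes gave 4 rises and 5 falls in 17, and genes of NF-kB signalling 8 rises and 3 falls in 24.

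The promoters of these groups can be read against letters known to bind their regulators. Windows from 250 bases before to 50 bases after each start were taken from RefSeq on GRCm38.p6, which held windows for 10541 of the tested genes, matched by symbol. The endoplasmic reticulum stress element was searched as CCAAT and CCACG with 9 bases of any kind between them, on both strands. It was found in 8 of the 19 unfolded protein response genes with a window (42.1%) and in 20 of all 10541 tested genes (0.19%). Of those 20, 15 were higher after knockdown and 2 lower, and of the 12 outside the list 8 were higher and 2 lower, beside 25.5% higher among the 10521 genes without it. The windows below show the element in capitals in the 4 genes of the list that hold it and rose the most, each read 5′ to 3′ on the strand given. The letters between its ends differ from gene to gene. Hsp90b1 holds 1 more match outside the stretch shown.
Hspa5 (chr2:34772020-34772049, plus strand): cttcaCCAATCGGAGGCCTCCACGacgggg
Creld2 (chr15:88819515-88819544, minus strand): tgtggaCCAATTGAGGCTCGCCACGagaag
Pdia6 (chr12:17266486-17266515, plus strand): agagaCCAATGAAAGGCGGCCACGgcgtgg
Hsp90b1 (chr10:86705632-86705661, minus strand): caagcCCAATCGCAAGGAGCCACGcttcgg

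The interferon-stimulated response element was searched as GAAA and GAAA with 2 bases of any kind between them, on both strands. It was found in 20 of the 36 interferon list genes with a window (55.6%) and in 392 of all tested genes (3.72%). Members with it were higher in 15 of 20 cases and members without it in 12 of 16. The 372 genes that hold it outside the list were higher in 26.3% and lower in 22.6% of cases, near the shares of all genes. The 4 list members that hold it and rose the most are shown with 1 match in capitals. In Oas1a and Gbp3 a second match overlaps the end of the one in capitals and is left in lower case.
Oas1a (chr5:120907526-120907555, minus strand): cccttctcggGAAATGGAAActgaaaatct
Rsad2 (chr12:26456553-26456582, plus strand): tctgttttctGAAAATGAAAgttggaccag
Cxcl10 (chr5:92349083-92349112, minus strand): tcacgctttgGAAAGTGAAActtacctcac
Gbp3 (chr3:142559995-142560024, minus strand): agggatctggGAAATAGAAActgaaactgt

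For the sterol genes, letters of the sterol regulatory element were searched as TCAC and CCAC with 1 base of any kind between them, on both strands. These were found in 1 of 18 list genes with a window (5.56%), Hmgcs1, and in 153 of all tested genes (1.45%). The window is printed because it is the only list member with these exact letters.
Hmgcs1 (chr13:119690204-119690233, plus strand): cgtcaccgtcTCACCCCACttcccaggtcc
A match in these windows is a description of the letters there and was not tested for binding.

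Structural matrix genes were lower. Of 23 tested collagen genes 16 fell and 1 rose, with a median of -0.63 and 8 falls over 2-fold. Col3a1 fell from 79.6 to 90.6 CPM (median 86.6) to 25.9 to 34.2 CPM (median 29.6), a log2 change of -1.54 ± 0.0555 SE, and Col14a1 (-1.58), Col4a3 (-1.17), Col1a1 (-1.12) and Col5a2 (-1.05) also fell. Col18a1 was the one that rose (0.16). Among other matrix genes, 26 of 37 fell and 5 rose (median -0.38). Fibronectin (Fn1) fell from 1713 to 1875 CPM (median 1770) to 1075 to 1121 CPM (median 1093), a log2 change of -0.70 ± 0.0348 SE. Dcn (-1.63), Postn (-1.38), Thbs4 (-1.06) and Sparc (-0.75) were lower, and the matricellular genes Ctgf and Cyr61 (both 0.88) and the laminin gene Lama4 (1.07) higher. Of 24 proteases and inhibitors 17 fell and 1 rose, with Adamts5 at -1.49 and the gelatinase Mmp9 at 1.10, with a knockdown median of 0.352 CPM. The call of Mmp9 was lost in some alternatives.

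Secreted signals changed in both directions. In the Wnt list 17 of 38 tested genes fell and 8 rose, and 8 of the falls were over 2-fold. They were of inhibitors (Wif1, Sfrp1 at -1.69, Sfrp5 at -1.22), of the Dickkopf family gene Dkk3 (-1.76) and of ligands (Wnt2 at -1.46, Wnt9b at -1.176). The receptor Fzd1 (-1.05) and the target Axin2 (-1.11) were the others. The ligand Wnt7b rose by 1.07. Both Wnt7b and Wnt9b were low, at most at 0.925 and 0.893 CPM in the stretched libraries. Of 34 TGF-beta and BMP genes 15 fell and 7 rose. Inhba (-1.15) and Bmp4 (-0.91) fell, the activin subunit gene Inhbb (1.176) and Tgfbr3 (1.00) rose, and Bmp10, an atrial ligand, fell by 2.48 at a control median of 0.526 CPM. Angiogenic genes gave 10 falls and 1 rise in 16, with Angpt1 first and Figf at -1.21, while Vegfa was not called (0.04). The receptor Flt4 rose by 0.81, at no more than 0.584 CPM in any stretched library. Dio2, the deiodinase that activates thyroid hormone, fell by 1.81 and Igfbp5 by 1.44.

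Genes known to answer stretch and growth signals were mixed. Of 21 tested hypertrophy and stretch markers, 10 rose and 8 fell (median 0.07). Nppb, the brain natriuretic peptide, rose from 0.207 to 0.441 CPM (median 0.291) to 0.996 to 1.33 CPM (median 1.06), a log2 change of 1.87 ± 0.219 SE, and remained low. Ankrd1, a stretch-sensitive titin partner, rose from 185 to 236 CPM (median 209) to 360 to 397 CPM (median 368), a log2 change of 0.83 ± 0.0675 SE. Gdf15 rose by 0.72 and Edn1 by 0.46. Of the 19 targets of YAP and TEAD, 9 rose and 5 fell (median 0.40), led by Amotl2, which went from 96.4 to 108 CPM (median 102) to 232 to 254 CPM (median 240), a log2 change of 1.24 ± 0.0407 SE. Dlc1 fell by 0.83.

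Immediate early genes, the first to respond to a stimulus, rose in 15 of 32 cases and fell in 4, with a median of 0.29. Of 8 AP-1 subunits, 6 rose and 1 fell. Fosb rose from 5.59 to 8.87 CPM (median 6.98) to 20.8 to 38.5 CPM (median 27.6), a 4.14-fold difference (log2 2.05 ± 0.194 SE, adjusted p = 4.21e-09). Atf3 rose from 45.6 to 57.8 CPM (median 53.5) to 120 to 133 CPM (median 123), a log2 change of 1.23 ± 0.075 SE. Jun, whose protein MuRF1 is known to bind, rose from 82.8 to 114 CPM (median 91.0) to 134 to 153 CPM (median 137), a log2 change of 0.60 ± 0.103 SE. The libraries of the 2 groups did not overlap in any of the 3 genes. Within the knockdown group, Fosb was at 28.5 to 38.5 CPM with letter a of the library code and at 20.8 to 26.6 CPM with letter b. Atf3 and Jun overlapped between letters there, as did all 3 genes in controls, and the cause was not tested. Jund (0.64), Fosl1 (0.61) and Junb (0.29) rose, Fosl2 fell by 0.41, and Fos (0.48) and Egr1 (0.31) were not called, with overlapping groups.

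Lists of p53 targets and of cell cycle genes moved by small amounts in the median, with larger changes in single genes. Of 24 tested p53 targets 18 rose and 3 fell, with a median of 0.25. Cdkn1a, the cell cycle inhibitor p21, rose from 99.1 to 110 CPM (median 106) to 167 to 181 CPM (median 174), a log2 change of 0.72 ± 0.0314 SE, while Cdkn1c, the related p57, fell by 1.09. Ccng1 and Bbc3 both rose by 0.58. The 3 falls were of Perp (-2.10), a desmosomal membrane protein, Fas (-0.35) and Sesn1 (-0.14). Perp was low, at 0.204 to 0.46 CPM in controls and 0 to 0.201 CPM after knockdown. Of 34 genes of the G2 and M phases 22 fell and 1 rose, but the median was only -0.15, and the largest fall was of Nusap1 (-0.35). Mki67, the proliferation marker, was not called (0.06). Of 39 replication genes 20 fell and 8 rose, with Ccne1 (0.30) and Ccne2 (0.45) among those that rose. Replication-dependent histone genes, whose messages normally lack a poly(A) tail, had 5 falls and no rise in 19 tested genes and a median of -0.71. Their summed level was 143.4 to 159.1 CPM in 5 controls, 298.7 CPM in control replicate 5 and 103.6 to 142.4 CPM after knockdown. Without that library the counts were 3 lower and 3 higher and the median was 0.32.

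Markers of other cell types were examined beside these results. The 13 cardiomyocyte markers summed to 1795 to 2290 CPM in controls and 1067 to 1111 CPM after knockdown, most of it from Tnnt2. Of 11 fibroblast markers 7 could be tested, 6 were lower and none higher, and the sum over the list was 819.2 to 843.6 CPM in controls and 556.9 to 586.2 CPM after knockdown. This list holds matrix genes already described (Col1a1, Col1a2, Col3a1, Dcn and Postn), so its fall is not separate from theirs. Of the other members, Ddr2 fell from 584.7 to 626.3 CPM to 461.3 to 485.2 CPM. Pdgfra was not called, at 6.176 to 7.457 CPM in controls and 6.179 to 8.086 CPM after knockdown. Tcf21, Thy1, Lum and Dpt were at most at 0.06966 CPM in any of the 12 stretched libraries. The part of fibroblasts in the matrix results was not tested.

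Leukocyte markers summed to 3.292 to 4.116 CPM in 5 controls, 5.681 CPM in control replicate 5 and 4.669 to 5.715 CPM after knockdown. Of 5 that could be tested, Cd68 (0.40) and Fcgr3 (0.67) were higher and none was lower. The call of Fcgr3 lay at the threshold (adjusted p = 0.04997) and was lost in some alternatives, and 11 of 13 never rose above 1 CPM. Their part in the interferon results was not tested. Endothelial markers summed to 32 to 36.68 CPM in controls and 22.88 to 26.04 CPM after knockdown. Of 4 tested, Egfl7 and Tek were lower and none higher, while Emcn and Erg were at 0 counts in all 12 libraries. Smooth muscle markers summed to 2464 to 2839 CPM in controls and 1824 to 1918 CPM after knockdown, most of it from Acta2, with 4 of 7 lower and 1 higher. Epicardial markers summed to 113.2 to 122.3 CPM and 104.9 to 110.5 CPM, with 3 of 4 lower and none higher. Most of that sum came from Tbx18, the member that was not called. Of 13 genes of the machinery that processes short hairpins, 4 rose and 5 fell, with a range of -0.24 to 0.61.

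Set beside the knockdown in non-stretched cells, which shares no library with it, the difference in stretched cells had mostly the same direction. Without stretch 8325 of 14411 genes (57.8%) were called, 4040 higher (28%) and 4285 lower (29.7%). Of the 7494 calls in stretched cells 6625 were called in the same direction there, which is 88.4% of the stretched and 79.6% of the non-stretched calls. The direction was the same, called or not, for 7397 (98.7%). Only 5 genes were called in opposite directions (Ano6, Cldn12, Ep300, Ppp1r10 and Spef1), with log2 changes no larger than 0.143 in stretched cells. Trim63 fell by 3.51 with stretch and by 3.52 without. Of the 659 genes changed over 2-fold in stretched cells, 621 were called in the same direction without stretch, and 402 of the 659 had the larger change there.

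**Figure D4:**
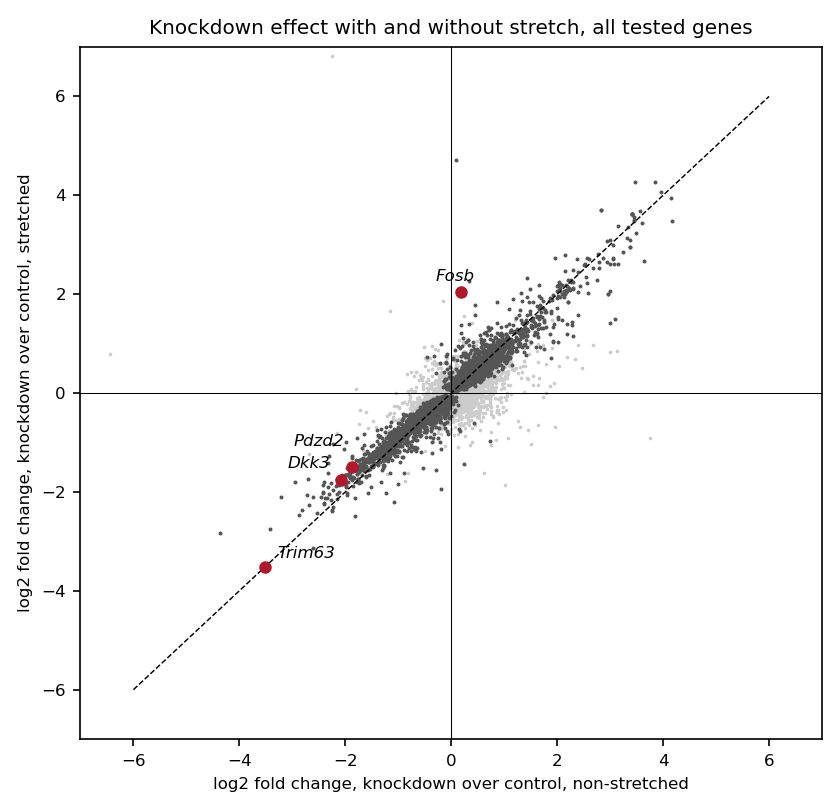
Log2 fold change of knockdown over control in non-stretched cells (horizontal axis) and in stretched cells (vertical axis) for 14411 genes, with genes called in stretched cells in dark grey and the line of equality dashed. Most genes lie along the line, and Fosb stands above it at 2.05 with stretch and 0.18 without.

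The difference between both knockdown effects was called for 3 genes (0.0208%), and for 1355 genes at an unadjusted p under 0.05 (9.4%). Fosb had no called difference without stretch, at 3.57 to 9.59 CPM in controls (median 6.15) and 5.41 to 9.45 CPM after knockdown (median 6.92), where the groups overlapped. Its knockdown effect was 1.87 larger on the log2 scale in stretched cells (adjusted p = 0.0181). Of the 4 groups, stretched knockdown cells were the only one whose libraries lay above 10 CPM. Pdzd2, which encodes a PDZ domain protein, fell from 205 to 257 CPM (median 219) to 74.9 to 83.1 CPM (median 77.5) with stretch, and from 228 to 241 CPM (median 235) to 55.1 to 68.2 CPM (median 64.4) without. Its log2 changes of -1.50 and -1.88 differed by 0.38 (adjusted p = 0.0222). Dkk3, a secreted protein of the Dickkopf family, fell from 407 to 456 CPM (median 439) to 114 to 138 CPM (median 129) with stretch. Without stretch it fell from 429 to 462 CPM (median 450) to 99.2 to 115 CPM (median 106), and the changes of -1.76 and -2.08 differed by 0.31 (adjusted p = 0.0301). In both genes the fall was smaller in stretched cells. Without control replicate 5 the difference was called for 109 genes (0.753%), 83 higher and 26 lower, and in DESeq2 with all libraries for 122. Without control replicate 2 it was called for none in edgeR, with 1144 genes at an unadjusted p under 0.05, and Fosb then had an adjusted p of 0.0548.

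**Figure D5:**
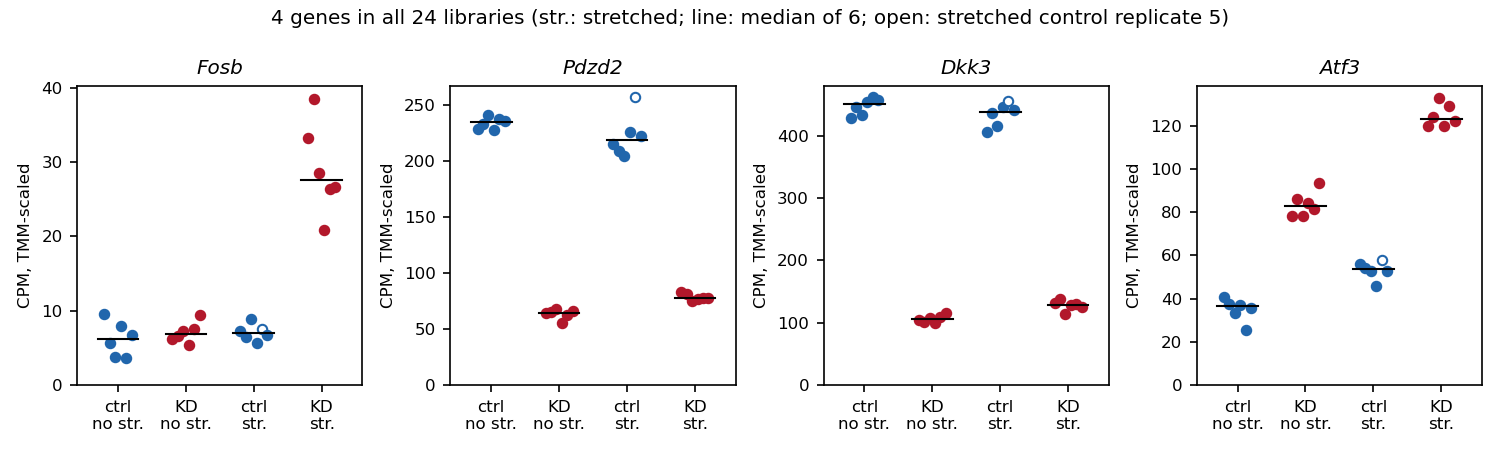
Level in CPM of Fosb, Pdzd2, Dkk3 and Atf3 in each of the 24 libraries by group, with group medians as lines. Fosb is high in the 6 stretched knockdown libraries (20.8 to 38.5 CPM) and at most 9.59 CPM in the others, whereas Atf3 is higher after knockdown with and without stretch.

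Of the 8 AP-1 genes, 6 rose and 1 fell with stretch, and 4 rose and 1 fell without it. Atf3 rose by 1.26 without stretch, from a control median of 36.4 to 82.9 CPM, and by 1.23 with it. Jun rose by 0.59 without and by 0.60 with stretch. Junb rose by 0.29 with stretch and was not called without it (0.11). Fos was called in neither state, at 0.48 with and -0.37 without stretch. Over the immediate early list, 10 rose and 6 fell without stretch (median 0.01), against the 15 and 4 given above. The difference between states was called for no member other than Fosb.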

How the data were processed

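Values came from a table of counts per gene for 24 libraries of HL-1 cells, 6 in each group, which the authors deposited as estimated counts. Reads were processed with kallisto 0.44.0, DESeq2 1.18.1 and R 3.4.4 on GRCm38.p6, per the submitters' processing notes. The deposited table of normalized signal, which the authors scaled between libraries, served only as an alternative scaling. Which annotation and settings were used is not given in the sources used here.

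Estimated counts were rounded to whole numbers, filtered with filterByExpr (minimum count 10, minimum total 15), scaled with TMM and fitted over all 24 libraries with edgeR 4.0.16 (quasi-likelihood test, Benjamini-Hochberg adjustment over all tested genes, threshold 0.05) in R 4.3.3. The interaction term compared the knockdown effect between stretched and non-stretched cells. Alternatives used RLE factors, DESeq2 1.42.0, limma 3.58.1 (voom), other filters, other samples, blocks and leaving out each stretched library. The procedure was also run on simulated data, in which 50 genes each were changed 1.2-, 1.5-, 2- and 4-fold and no library stood apart. It recovered 82% of the 1.2-fold changes, with 9 false calls in 14281 genes. Far fewer genes changed there than were called here, so that run does not measure error in these data.

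Replicate numbers did not pair the samples, with correlations of -0.03 to 0.07 between deviations of equal numbers and none of 6 above 0.1. No 2 libraries were identical. Depth was 23.6 to 54.8 M (mega) estimated counts per library.

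The gene lists and members were chosen with earlier results of these data known. Named genes were the MuRF genes, the 15 largest rises and falls among called genes whose log2 CPM averaged 1 or more and no overlap between groups, leading and other members of 59 lists, the genes with a called interaction, and the 5 with the highest CPM changed at least 1.5-fold. Clone names were left out, those starting with RP23 or RP24 only after their values had been seen. The genes called in opposite directions were also named after their values were seen. The position of Trim63 is from GENCODE vM21 and promoter windows are from RefSeq (GRCm38.p6). Some list members are not reported here.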

Additional observations from a re-analysis of the deposited data

Results flagged for a closer look

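In 10 of 68 combinations of a gene and a group of 6 stretched libraries, 1 library stood apart from the other 5, judged by its gap to the nearest value against the range of the group. The 34 genes given with the lowest, median and highest value were examined, and chance flags about 1 in 20 groups. In 7 of the 10 the library was control replicate 5. It lay below the other controls for Tnni3 (112 CPM, others 156 to 166), Pln (120 CPM, others 172 to 184), Myl7 (151 CPM, others 217 to 239) and Tnnt2 (969 CPM, others 1250 to 1380). It lay above them for Ttn (380 CPM, others 295 to 322), Hey2 (2.04 CPM, others 1.26 to 1.44) and Shisa8 (7.23 CPM, others 4.02 to 4.65). For the 7 genes it nevertheless lay on the control side of all knockdown libraries.

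Knockdown replicate 3 was the lowest for Corin (21.9 CPM, others 25.9 to 28.1) and Fbxo32 (19.8 CPM, others 21.0 to 21.5). Knockdown replicate 1 kept the most Trim63, with 83.5 CPM against 60.0 to 68.0 CPM in the other knockdown libraries.

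A difference in the knockdown effect between stretched and non-stretched cells was called by the interaction test in edgeR for Fosb (1.87 on the log2 scale), Pdzd2 (0.38) and Dkk3 (0.31).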

How the results depend on the processing

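Of 219 called named genes, 208 kept their direction and call under each of the 21 alternatives in which they were tested, and none reversed. The call was lost in at least 1 alternative for the other 11, which were Ano6, Cldn12, Spef1, Tjp1, Fcgr3, Mmp9, Pdlim7, Myl2, Kcnip2, Col18a1 and Myh14. Genes higher and lower numbered 3409 to 3775 and 3582 to 4242 when each stretched library was left out in turn, and genes over 2-fold 640 to 713. They numbered 3862 and 3707 with RLE factors, 3906 and 3750 in DESeq2, and 4236 and 4545 in limma-voom. With no filter beyond a total above 0 they numbered 4012 and 3499. Whether rises or falls were more numerous thus depended on the scaling and the filter. The stricter filter, which tests fewer genes, left 417 over 2-fold, and the fit with no filter beyond a total above 0 gave 914. The count of genes with a called interaction moved most. It was 0 to 109 when 1 library was left out, 122 in DESeq2, 190 in limma-voom, 45 with the letter of the library code blocked and 1 with the authors' factors as offsets, beside 3 in edgeR, and the cause was not tested. Highest adjusted p-values over the alternatives were 0.0548 for Fosb, 0.118 for Pdzd2 and 0.135 for Dkk3.

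With the replicate number as a block, 3660 genes were higher, 3907 lower and 9 had a called interaction. The block was an alternative only, since the numbers did not pair the samples, and 3 of 6 knockdown libraries correlated best with their own number.

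Of 59 list medians, 6 changed sign in at least 1 alternative, those of the proteasome, antigen presentation, clock and leukocyte marker lists among them. That of the replication-dependent histones was 0.132 in limma-voom and 0.321 without control replicate 5 (range -0.905 to 0.321 when each library was left out), against -0.71 with all libraries. That of creatine supply was -0.126 with the authors' factors, against 0.02. Low counts limit genes such as Nppb, Myl2 and Kcnip2. Counts of the mitochondrially encoded, ribosomal and histone lists change without control replicate 5, and the cause was not tested.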
